A study of Homo sapiens with 9 samples.

Results

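Regulators of G-protein signalling (RGS proteins) were described in BL2 cells, an established human Burkitt lymphoma line derived from a germinal centre type of B cell tumour. The 8 genes are RGS1, RGS2, RGS10, RGS13, RGS14, RGS16, RGS18 and RGS19, out of 19775 genes that the arrays name. They are measured by 18 of the 54613 probe sets tested, those whose platform annotation names exactly 1 gene and that gene is one of the 8. The genes were chosen by their levels and changes on these same arrays, so their own values are given as a description and without p-values.

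The data are 9 HG-U133 Plus 2.0 arrays of BL2 cells from 3 independent experiments with an array of each of 3 conditions (n = 3 arrays a condition). In the first condition cells received soluble recombinant human CD40L at 200 ng/ml for 6 hrs, the ligand through which helper T cells engage CD40 on B cells. In the second they received LPS from E. coli, a glycolipid of the bacterial outer membrane, at 1 μM for the same time. Control cells were left untreated, and the sample labels give no culture time for them. A difference in culture time could therefore not be told apart from a stimulus. All values come from 1 cell line, so the 3 experiments repeat the culture and not the donor. They are taken to be the 3 batches that the sample names number, and are called batches here. B cell genes on a marker list had mean levels of 8.83 to 13.0, with 6 of 7 listed genes measured. Of the lists of other cell types, 9 T and NK cell genes lay between 6.17 and 7.55, 7 monocyte genes between 5.88 and 6.67, 6 fibroblast genes between 5.80 and 7.94 and 6 platelet genes between 5.91 and 6.98. The median over all probe sets was 6.45. CD247 and COL1A1 had the highest levels on the T and NK cell list and on the fibroblast list.

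When a receptor coupled to a heterotrimeric G protein is engaged, the α subunit binds GTP and separates from the βγ pair, and both parts signal. RGS proteins bind the GTP-loaded α subunit and speed up hydrolysis of the GTP, which ends the signal. Germinal centre B cells find their place by chemokine and lipid receptors of this kind, and RGS1 and RGS13 are known for restraining B cell responses to chemokines.

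Of the 8 genes, RGS18, RGS1, RGS13, RGS2 and RGS16 belong to the R4 subfamily, whose members consist of little more than the RGS domain. RGS10 and RGS14 belong to the R12 subfamily, and RGS19, also called GAIP, to the RZ subfamily. On chromosome 1, RGS18, RGS21, RGS1, RGS13 and RGS2 follow each other with no other protein-coding gene between them. RGS21 has no probe set that names it alone. RGS16 also lies on chromosome 1, RGS10 on chromosome 10, RGS14 on chromosome 5 and RGS19 on chromosome 20.

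The promoter windows of RGS18, RGS1 and RGS13 are shown because these neighbours include the gene with the largest change, RGS18, and the gene with 1 outlying array, RGS1. Each runs from 250 bases before to 50 bases after the annotated start (RefSeq, GRCh38.p14), and capitals mark matches to the motifs searched.
RGS18 promoter, chr1:192158212-192158511, plus strand: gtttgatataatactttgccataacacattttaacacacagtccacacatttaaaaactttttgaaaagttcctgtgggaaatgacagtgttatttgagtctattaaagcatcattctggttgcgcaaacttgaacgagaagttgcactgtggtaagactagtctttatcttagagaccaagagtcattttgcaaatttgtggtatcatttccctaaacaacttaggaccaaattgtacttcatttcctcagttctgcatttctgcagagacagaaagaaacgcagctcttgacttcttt
RGS1 promoter, chr1:192575523-192575822, plus strand: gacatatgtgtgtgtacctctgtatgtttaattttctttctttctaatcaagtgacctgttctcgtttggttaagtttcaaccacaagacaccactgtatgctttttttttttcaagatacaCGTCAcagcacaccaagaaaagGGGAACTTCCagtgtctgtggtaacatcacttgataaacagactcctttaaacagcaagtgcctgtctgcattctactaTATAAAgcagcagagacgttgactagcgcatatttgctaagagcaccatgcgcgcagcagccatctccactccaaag
RGS13 promoter, chr1:192635897-192636196, plus strand: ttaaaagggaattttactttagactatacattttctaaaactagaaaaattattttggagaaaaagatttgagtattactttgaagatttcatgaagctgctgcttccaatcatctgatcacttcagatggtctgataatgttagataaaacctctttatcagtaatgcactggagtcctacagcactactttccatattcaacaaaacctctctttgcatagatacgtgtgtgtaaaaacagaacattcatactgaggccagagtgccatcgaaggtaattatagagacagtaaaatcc

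The windows of all 8 genes were found in the promoter table and were searched on both strands for 5 motifs. These were the NF-κB consensus, the TATA box TATAAA, the cAMP response element core TGACG, the forkhead motif TGTTTAC and the E box CACGTG. The RGS1 window held an NF-κB match that starts 106 bases before the start, a TATAAA that starts 27 bases before it and a TGACG on the other strand 128 bases before it, and none of these overlap. These 3 motifs occur in 11.3%, 11.5% and 24.6% of 35116 promoter windows of the same length. The windows of RGS18 and RGS13 held none of the 5 motifs. Outside the printed windows, RGS2 held a TGACG and 1 of the RGS19 windows held a CACGTG, a motif found in 7.26% of all windows. TGTTTAC, found in 3.42% of all windows, was in none of the 8 genes. The windows of RGS18, RGS1 and RGS13 were poor in G and C, with 36.0%, 41.7% and 33.7%, against 69.7% for RGS2 and a median of 58.7% over all windows. A match to a motif is a description of the letters and does not show that a factor binds there.

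The values are levels on the generalised log2 scale of the deposited table, on which differences between dim probe sets are compressed. The level of one probe set cannot be set against that of another, because probes differ in brightness. Changes are log2 fold changes with their standard errors from 1 limma model of all 9 arrays that holds the condition and the batch, and a probe set is called past the threshold at a Benjamini-Hochberg adjusted p of at most 0.05 over all 54613 probe sets. Of the 18 probe sets, 1 was called higher and 1 lower after CD40L, where 3.71% of all probe sets were called higher and 1.87% lower. After LPS, 1 was called higher and 2 lower, against 1.17% and 0.892% of all probe sets. The groups did not overlap at 3 of the 18 after CD40L (16.4% of all probe sets) and at 3 after LPS (13.4%), each time those of RGS18, RGS10 and RGS14. Nothing is read from these member counts, since the genes were chosen with the results known. With quantile normalization on top of the deposited values, the 2027 higher and 1022 lower calls among all probe sets after CD40L became 1707 and 1694, and the 637 and 487 after LPS became 775 and 870.

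**Figure D1:**
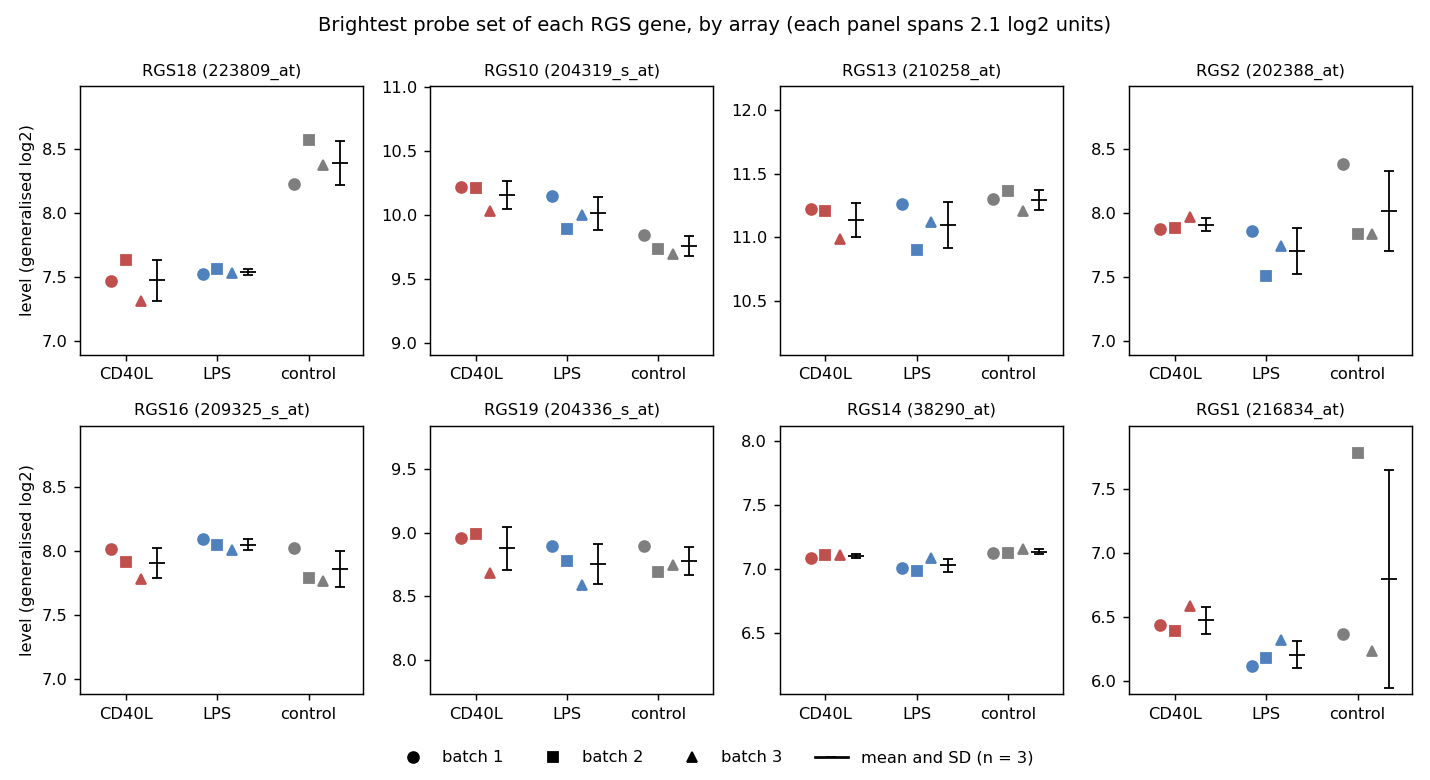
Level of the brightest probe set of each gene on the generalised log2 scale (vertical axis, 2.1 log2 units in every panel) in CD40L, LPS and control arrays, with a point for each array, its shape giving the batch, and the mean with its SD (n = 3). RGS18 lay between 7.31 and 7.64 in the CD40L and LPS arrays, below all control arrays, and RGS1 had 1 high value of 7.78 in the control array of batch 2.

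RGS18 was the member with the largest change after either stimulus. It is best known from platelets and other blood cells, where it acts on α subunits of the Gi and Gq classes. Its single probe set (223809_at) had levels of 7.47, 7.64 and 7.31 after CD40L, of 7.52, 7.56 and 7.53 after LPS, and of 8.22, 8.57 and 8.38 in control cells, in the order of batches 1, 2 and 3. All 6 stimulated arrays were below all 3 control arrays. The log2 fold change was −0.92 ± 0.069 (SE) after CD40L, 1.89-fold lower than in control cells. After LPS it was −0.85 ± 0.069, 1.81-fold lower. Over all probe sets these changes stood at rank 14 from the lowest after CD40L and at rank 2 after LPS. RGS18 was thus near the bottom of either ranking, which is a description, since the members were chosen by such changes.

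Within the batches, RGS18 was lower by 0.76, 0.94 and 1.07 after CD40L and by 0.70, 1.01 and 0.85 after LPS. It was past the threshold in all 20 alternative settings for both stimuli, with log2 fold changes of −0.85 or lower after CD40L and between −0.93 and −0.78 after LPS. These settings refit the arrays by which RGS18 was chosen. They describe how the value depends on the processing and are no independent evidence for it. Set against LPS, CD40L differed by −0.07 ± 0.069, with overlapping groups. The order of the levels was therefore control above both stimuli, and the 2 stimuli did not differ beyond their spread. Both comparisons use the same 3 control arrays. On bulk arrays, fewer cells with RGS18 RNA and less of it per cell cannot be told apart. The defining genes of platelets, the cells RGS18 is best known from, had levels of 5.91 to 6.98, around the median of 6.45 over all probe sets. In any of the 3 comparisons, 0 of 6 were past the threshold or had an unadjusted p under 0.05 in limma. At such levels a change can be missed, so nothing is read from this about RGS18.

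RGS13, a small RGS protein of germinal centre B cells and mast cells, had 2 bright probe sets and 1 dim one. The brightest (210258_at) had levels of 11.22, 11.21 and 10.99 after CD40L, of 11.26, 10.90 and 11.12 after LPS and of 11.30, 11.36 and 11.21 in control cells. In every batch both stimuli were below the control, but the groups overlapped. The log2 fold changes were −0.15 ± 0.077 after CD40L and −0.20 ± 0.077 after LPS, and neither was past the threshold.

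The other bright RGS13 probe set (1568752_s_at) had levels of 9.48, 9.32 and 9.11 after CD40L, of 9.37, 9.04 and 9.08 after LPS and of 9.63, 9.71 and 9.32 in control cells. It ran the same way as the first, below the control in each batch, again with overlapping groups. After LPS its log2 fold change of −0.39 ± 0.073 was past the threshold, and after CD40L that of −0.25 ± 0.073 was not. The LPS value rested most on batch 2, where the difference was −0.67, against −0.26 and −0.24 in batches 1 and 3. It was past the threshold in 13 of 20 alternatives, with a range of −0.46 to −0.25. The call was lost without any 1 of the 3 batches (−0.45, −0.25 and −0.46 without batch 1, 2 or 3), without LPS replicate 1 (−0.43) and without LPS replicate 2 (−0.29). With the same value of −0.39 it was also lost without batch as a term and with batch as a random effect. The dim probe set (1568751_at) stayed between 5.80 and 6.00 in all arrays.

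Most measured genes on a list of germinal centre B cell genes were lower in the same arrays. On this list, 5 of 7 measured were called lower after CD40L and 5 after LPS (BCL6, MME, CD38, MYBL1 and GCSAM each time). Of all probe sets, 1.87% and 0.892% were called lower. Here and for the lists below, the shares over all probe sets include dim ones and those naming no gene. A listed gene stands by its brightest probe set, so the comparison is not of like with like. The median log2 fold change of the list was −0.47 after CD40L and −0.31 after LPS. S1PR2, also on the list, was not past the threshold after CD40L (−0.07 ± 0.068). BCL6, the repressor that defines the germinal centre programme, fell by 0.47 after CD40L (SE 0.063, adjusted p = 0.00021 from limma) and by 0.31 after LPS (SE 0.063, adjusted p = 0.0144), in 3 of 3 batches each time. Of 6 general B cell genes, 3 fell after CD40L and 1 after LPS. The part of this shift in the values of RGS13 and RGS18 was not tested.

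RGS1, an early gene of B cell activation, had a single array that stood apart. Its brightest probe set (216834_at) had levels of 6.44, 6.39 and 6.59 after CD40L, of 6.12, 6.18 and 6.32 after LPS and of 6.37, 7.78 and 6.24 in control cells. The control array of batch 2 was 1.19 above the next highest array, 2.28-fold on this scale. No other probe set on any of the 9 arrays exceeded all other arrays by at least 1 log2 unit. A second RGS1 probe set (202988_s_at) was also highest in this array, at 6.76 against 6.12 to 6.25 in the other 8. The third (202989_at) was flat, between 5.60 and 5.80.

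Because of this array, RGS1 had the widest control group of the members (SD 0.85 for 216834_at, against 0.10 after CD40L and 0.11 after LPS). The log2 fold changes of 216834_at were −0.32 ± 0.22 after CD40L and −0.59 ± 0.22 after LPS, both not past the threshold. Without control replicate 2 they were 0.20 ± 0.073 after CD40L and −0.07 ± 0.073 after LPS, so that the direction after CD40L turned. Without control replicate 3 the LPS value was −0.93 and past the threshold. The levels after CD40L all lay above those after LPS, with a difference of 0.27 ± 0.22 that was not past the threshold and ranged from 0.03 to 0.55 over the alternatives. It had a standard error of 0.062 without control replicate 2 and was then past the threshold, as it was when only the CD40L and LPS arrays were fitted. At 202988_s_at and 202989_at CD40L and LPS differed by 0.02 ± 0.10 and −0.04 ± 0.062. Outside control replicate 2, the levels of 216834_at ran from 6.12 to 6.59, around the median of 6.45 over all probe sets. By qRT-PCR the paper reports RGS1 as not detectable in unstimulated cells.

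The 4 probe sets with the next largest gaps in the control array of batch 2 belong to 3 other genes, which are given here after their values were seen. HILPDA, which coats lipid droplets, had 10.57 in this array, against 9.29 to 9.90 in the other 8 (218507_at), and 10.30, against 9.01 to 9.56, at its other probe set (1554452_a_at). BNIP3, a mitochondrial protein of mitophagy, had 10.74, against 9.28 to 10.19 (201849_at). For DDIT4, a brake on mTOR signalling, the value was 10.61, against 8.74 to 10.03 (202887_s_at). The control array of batch 3 was the next highest at 3 of these 4 probe sets and that of batch 1 at 1554452_a_at, whereas RGS1 216834_at was at 6.24 in the control array of batch 3. At both HILPDA probe sets and at BNIP3, every control array lay above every stimulated array. At 1554452_a_at the controls had 9.56, 10.30 and 9.54, against at most 9.22 after a stimulus. The groups overlapped at DDIT4, with 8.89 in the control array of batch 1 and 9.58 in the CD40L array of batch 2. The part of the control array of batch 2, or of this difference of the controls, in the member values was not tested.

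**Figure D2:**
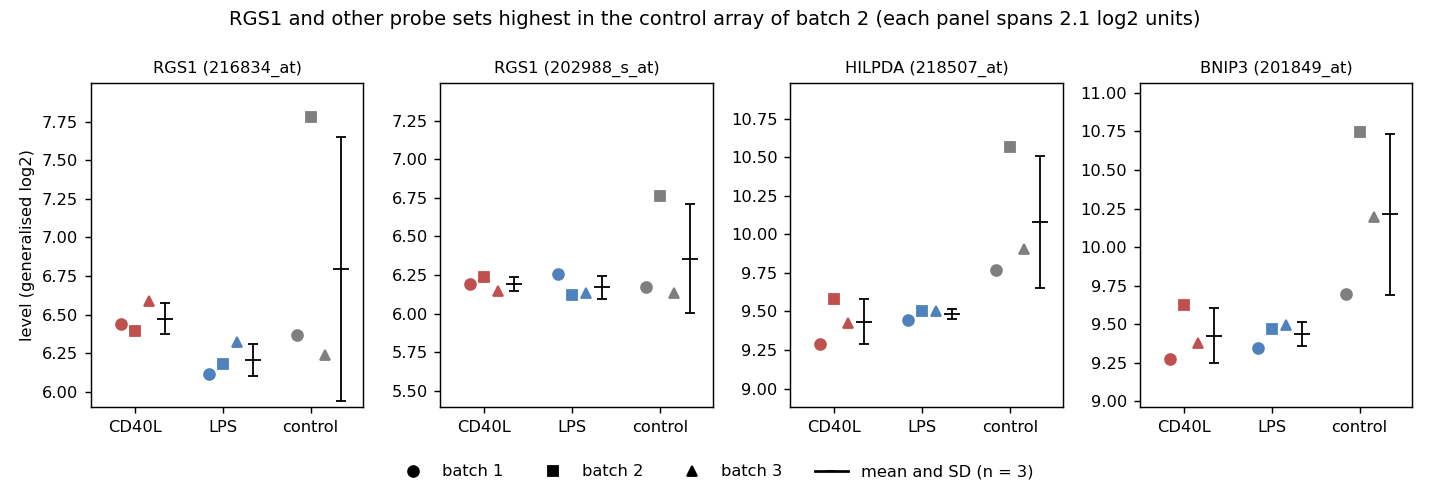
Levels on the generalised log2 scale (vertical axis, 2.1 log2 units in every panel) of 2 RGS1 probe sets, HILPDA and BNIP3 in CD40L, LPS and control arrays, with a point for each array, its shape giving the batch, and the mean with its SD (n = 3). The square in the control group, batch 2, is the highest point of each panel, at 7.78 and 6.76 for RGS1.

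RGS2, which acts mainly on α subunits of the Gq class, had levels of 7.87, 7.89 and 7.97 after CD40L, of 7.86, 7.51 and 7.74 after LPS and of 8.38, 7.84 and 7.84 in control cells (202388_at). The control array of batch 1 was 0.41 above all others. The CD40L arrays were tight (SD 0.051) and all lay above the LPS arrays, with a difference of 0.21 ± 0.092. Against the control the log2 fold change was −0.11 ± 0.092 after CD40L and −0.32 ± 0.092 after LPS, and neither was past the threshold. RGS2 was below the control in all 3 batches after LPS (−0.52, −0.33 and −0.10) and in 1 of 3 after CD40L. The LPS value passed the threshold in 4 of 20 alternatives, with quantile normalization (−0.34), without CD40L replicate 1 (−0.32), without control replicate 2 (−0.35) and without control replicate 3 (−0.43).

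RGS16, which acts on α subunits of the Gi and Gq classes, had 2 bright probe sets that were both highest after LPS on average. For 209325_s_at the levels were 8.02, 7.91 and 7.78 after CD40L, 8.09, 8.05 and 8.01 after LPS and 8.02, 7.79 and 7.77 in control cells. For 209324_s_at they were 8.07, 7.99 and 7.61 after CD40L, 8.20, 8.09 and 7.72 after LPS and 8.28, 7.54 and 7.69 in control cells. At 209324_s_at batch 3 was lowest in both stimulated groups and batch 2 in the control group, and all groups overlapped. The log2 fold changes after LPS were 0.19 ± 0.059 and 0.16 ± 0.097, and after CD40L 0.05 ± 0.059 and 0.05 ± 0.097, none past the threshold. In every batch both probe sets were lower after CD40L than after LPS, by 0.15 ± 0.059 and 0.11 ± 0.097 in the fit. The remaining dim probe set (242212_at) stayed between 5.95 and 6.20.

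RGS10, of the R12 subfamily and known from immune cells and brain, was the member that rose. Its brightest probe set (204319_s_at) had levels of 10.22, 10.22 and 10.03 after CD40L, of 10.15, 9.90 and 10.00 after LPS and of 9.85, 9.74 and 9.70 in control cells. Each stimulated array was above every control array. The log2 fold change was 0.40 ± 0.062 after CD40L, or 1.32-fold, and 0.26 ± 0.062 after LPS, or 1.19-fold. Both were past the threshold. The CD40L value kept its call in 20 of 20 alternatives (0.33 to 0.44), all drawn from the arrays by which RGS10 was chosen.

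The LPS value of RGS10 was close to the threshold and kept its call in 5 of 20 alternatives, with a range of 0.21 to 0.32. The call was lost without batch 1 (0.23) or 3 (0.23), without LPS replicate 1 (0.23) or 3 (0.22), without control replicate 1 (0.25) or 3 (0.26) and without CD40L replicate 1 or 3 (0.26 each). Of the settings that keep all arrays, the call held in 1 of 8, that with the AFFX probe sets kept. Set against LPS, CD40L differed by 0.14 ± 0.062, positive in all 3 batches and with overlapping groups. The other RGS10 probe sets did not share the change. Between CD40L and control, 204316_at differed by 0.07 ± 0.057 and 214000_s_at by 0.01 ± 0.061, with levels of 7.10 to 7.24 and of 6.35 to 6.66 over all arrays.

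RGS14, also of the R12 subfamily, carries a second G protein binding motif that holds inactive α subunits of the Gi class. Its brightest probe set (38290_at) had levels of 7.08, 7.11 and 7.11 after CD40L, of 7.01, 6.99 and 7.08 after LPS and of 7.12, 7.12 and 7.16 in control cells. Both stimulated groups lay just below the control group without overlap, at −0.04 ± 0.055 after CD40L and −0.11 ± 0.055 after LPS. Neither change was past the threshold. The other RGS14 probe sets, 204280_at and 211021_s_at, lay between 6.76 and 6.98 and between 6.49 and 6.73. They changed by −0.06 ± 0.062 and −0.08 ± 0.058 after CD40L and by −0.09 ± 0.062 and −0.03 ± 0.058 after LPS. Their groups overlapped, and none was past the threshold.

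RGS19, of the RZ subfamily and first found through its binding to a Gi α subunit, had levels of 8.96, 8.99 and 8.69 after CD40L, of 8.90, 8.78 and 8.59 after LPS and of 8.90, 8.69 and 8.74 in control cells (204336_s_at). The 3 groups overlapped, and batch 3 was the lowest in both stimulated groups. The log2 fold changes were 0.10 ± 0.066 after CD40L and −0.02 ± 0.066 after LPS, neither past the threshold.

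Set directly against each other, CD40L and LPS differed past the threshold at 0 of the 18 probe sets in limma, where 0.396% of all probe sets did (0.3% higher and 0.0952% lower after CD40L). Over all 54613 probe sets, 1605 were higher and 1114 lower at an unadjusted p under 0.05 in limma. The groups did not overlap at 2 of the 18 probe sets, of RGS1 and RGS2 and both higher after CD40L (9.17% of all probe sets). The median over the 18 was −0.04 after CD40L, −0.03 after LPS and 0.04 for CD40L minus LPS, against 0.0050, 0.0029 and 0.0049 over all probe sets.

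**Figure D3:**
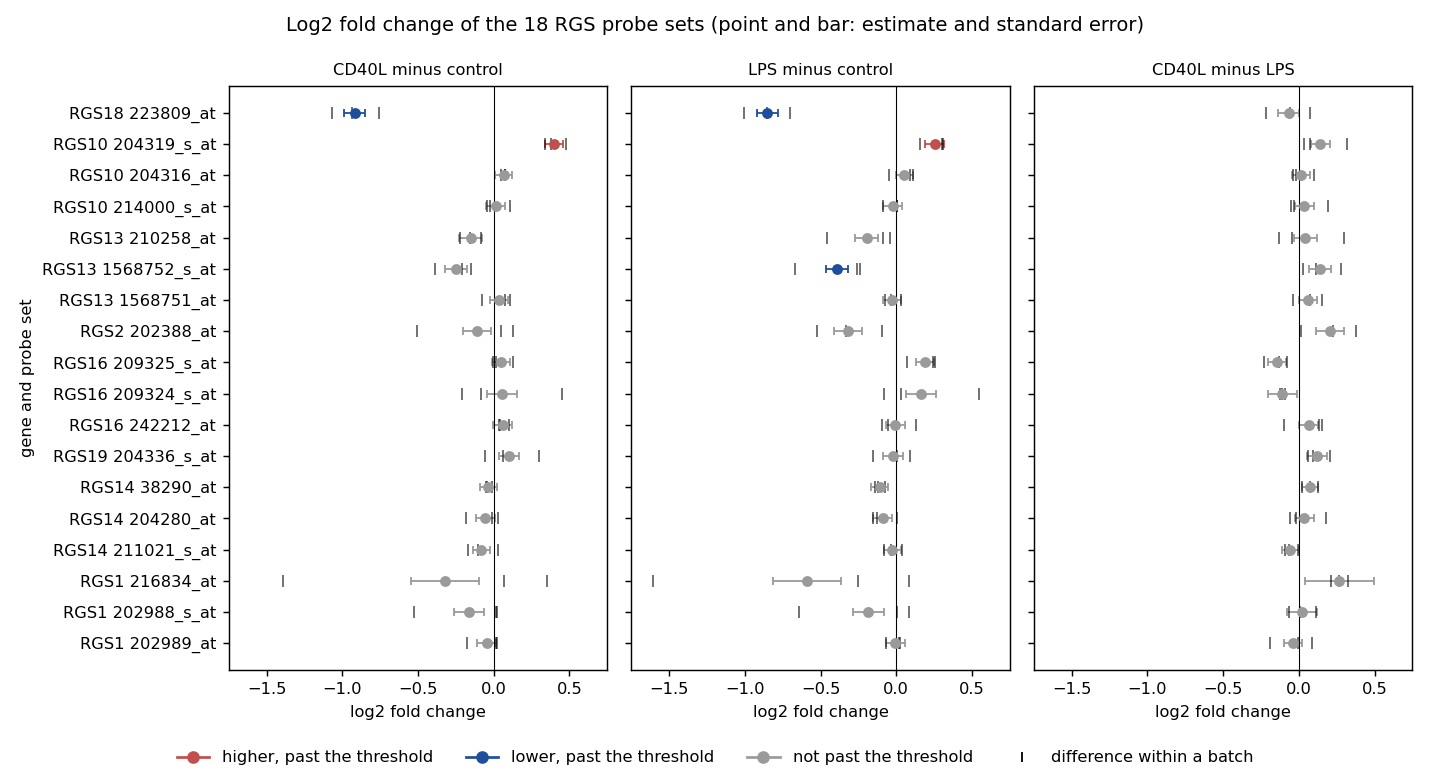
Log2 fold change (horizontal axis) of the 18 probe sets (vertical axis) in 3 panels (CD40L minus control, then LPS minus control, then CD40L minus LPS), with the standard error as a bar and the difference within each batch as a tick. RGS18 stands at −0.92 and −0.85 on the left of the first panels, RGS10 204319_s_at at 0.40 and 0.26 on the right, and the RGS1 probe set 216834_at has 1 tick far to the left, that of batch 2.

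The genes whose levels ran most like those of RGS18 over the 9 arrays, among named probe sets of other genes with a mean level of at least 7, were MOB3A, of the MOB family of kinase adaptors, with a Pearson r of 0.986, MPLKIP with 0.982 and ELAPOR2 with 0.980. MOB3A averaged 8.58 after CD40L, 8.65 after LPS and 9.09 in control cells. For RGS10 they were EIF5, a translation initiation factor, with 0.979, CIBAR1 with 0.976 and C8orf33 with 0.975. EIF5 averaged 11.35 after CD40L, 11.26 after LPS and 11.08 in control cells. These correlations are a description over 9 arrays that share conditions and batches.

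Of 14 further RGS genes on a list, 13 were measured. Their brightest probe sets had mean levels of 6.01 to 6.83 over the 9 arrays. RGS3, an RGS protein that occurs in long and short forms, was the single one past the threshold, where 5.58% of all probe sets were called after CD40L and 2.06% after LPS. Its probe set 203823_at had levels of 6.54, 6.75 and 6.72 after CD40L, of 6.71, 6.93 and 6.70 after LPS and of 6.83, 7.19 and 7.08 in control cells. It fell by 0.36 on the log2 scale after CD40L (SE 0.063, adjusted p = 0.00193 from limma) and by 0.25 after LPS (SE 0.063, adjusted p = 0.0468), in 3 of 3 batches each time. The CD40L call held in 19 of 20 alternatives and the LPS call in 6 of 20. The 2 other RGS3 probe sets were not past the threshold.

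Upstream of the RGS proteins, 23 of 26 listed receptors of B cells were measured. After CD40L, 4 were higher (3.71% of all probe sets) and 1 lower (1.87%), with a median log2 fold change of 0.01. After LPS 0 were higher (1.17% of all probe sets) and 2 lower (0.892%), with 6 at an unadjusted p under 0.05. PTGER4, a prostaglandin E2 receptor that raises cAMP, averaged 8.91 ± 0.064 after CD40L, 8.46 ± 0.086 after LPS and 8.20 ± 0.28 in control cells (SD, n = 3 each). Its log2 fold change of 0.70 after CD40L (SE 0.090, adjusted p = 0.000136 from limma) held in 20 of 20 alternatives and in 3 of 3 batches. CCR7, the chemokine receptor that guides B cells to the T cell zone, averaged 8.04 ± 0.13 after CD40L, 7.45 ± 0.24 after LPS and 7.61 ± 0.35 in control cells. It rose by 0.43 after CD40L (SE 0.074, adjusted p = 0.00189 from limma, 3 of 3 batches), a call lost without batch 3 (0.30) and without batch as a fixed term. P2RY10, a receptor for lysophospholipids, rose by 0.37 after CD40L (SE 0.060, adjusted p = 0.00128 from limma, 3 of 3 batches, 19 of 20 alternatives). The call of P2RY10 rested on 1 of its 3 probe sets.

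GPR18, a receptor of lymphocytes, fell after both stimuli. The change was −0.30 after CD40L (SE 0.075, adjusted p = 0.0263 from limma) and −0.41 after LPS (SE 0.075, adjusted p = 0.00803), lower in 3 of 3 batches each time, and the calls held in 11 and 16 of 20 alternatives. S1PR4, a sphingosine-1-phosphate receptor, fell by 0.25 after LPS (SE 0.060, adjusted p = 0.0443 from limma, 3 of 3 batches), which held in 4 of 20 alternatives. In the direct comparison, 3 receptors were higher after CD40L than after LPS (0.3% of all probe sets) and 0 lower (0.0952%). They were CCR7 by 0.60 (SE 0.074, adjusted p = 0.000722), PTGER4 by 0.44 (SE 0.090, adjusted p = 0.0429) and P2RY10 by 0.32 (SE 0.060, adjusted p = 0.0245), in 3 of 3 batches each and in limma. These calls held in 17, 8 and 9 of 20 alternatives. Those of PTGER4 and P2RY10 rested on 1 of 2 and 1 of 3 probe sets.

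Among the G-protein subunits, 2 of 16 α subunit genes were higher after CD40L (3.71% of all probe sets) and 1 after LPS (1.17%), with 0 lower in either case. GNAZ, an α subunit of the Gi class that RGS proteins of the RZ subfamily act on, averaged 8.04 ± 0.10 after CD40L, 8.02 ± 0.16 after LPS and 7.69 ± 0.079 in control cells. It rose by 0.35 after CD40L (SE 0.068, adjusted p = 0.0049 from limma) and by 0.33 after LPS (SE 0.068, adjusted p = 0.0157), higher in 3 of 3 batches each time. The CD40L call of GNAZ held in 19 of 20 alternatives and its LPS call in 12 of 20, lost among others without batch as a fixed term. GNA15, an α subunit of the Gq class found in blood cells, rose by 0.35 after CD40L (SE 0.058, adjusted p = 0.00164 from limma, 3 of 3 batches) and lay higher than after LPS by 0.29 (SE 0.058, adjusted p = 0.0387). The CD40L call of GNA15 held in 20 of 20 alternatives and its difference from LPS in 8 of 20.

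Of 17 β and γ subunit genes, 2 were lower after CD40L (1.87% of all probe sets) and 1 after LPS (0.892%), with 0 higher. GNG7, a γ subunit, fell by 0.36 after CD40L (SE 0.060, adjusted p = 0.00162 from limma) and by 0.25 after LPS (SE 0.060, adjusted p = 0.0409), in 3 of 3 batches each, with 1 of its 3 probe sets called. GNGT2, another γ subunit, fell by 0.29 after CD40L (SE 0.068, adjusted p = 0.0188, 3 of 3 batches, 12 of 20 alternatives). The CD40L call of GNG7 held in 19 of 20 alternatives and its LPS call in 5 of 20.

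Among other proteins that carry an RGS domain or bind α subunits, 1 on each list passed the threshold after CD40L. Over all probe sets, 5.58% passed after CD40L and 2.06% after LPS. Of 16 RGS domain relatives, GRK2, a kinase that switches off engaged receptors, rose by 0.36 after CD40L (SE 0.081, adjusted p = 0.0145 from limma, 3 of 3 batches, 14 of 20 alternatives). The call of GRK2 rested on 1 of its 3 probe sets. After LPS 0 of the 16 passed in limma, with 1 at an unadjusted p under 0.05. Of 9 adaptors measured, CCDC88A, which binds and activates α subunits of the Gi class, fell by 0.23 after CD40L (SE 0.058, adjusted p = 0.0278 from limma, 3 of 3 batches, 9 of 20 alternatives). The call of CCDC88A was shared by 2 of its 6 probe sets. After LPS 0 of the 9 passed, again with 1 at an unadjusted p under 0.05.

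Downstream, PRKACB, a catalytic subunit of protein kinase A, showed the largest change of the cAMP genes. It averaged 10.23 ± 0.081 after CD40L, 10.45 ± 0.10 after LPS and 10.95 ± 0.038 in control cells. The fall of 0.72 after CD40L (SE 0.062, adjusted p = 2.27e-06 from limma) and of 0.50 after LPS (SE 0.062, adjusted p = 0.000363) was seen in 3 of 3 batches, held in 20 of 20 alternatives and was shared by 2 of its 3 probe sets. PRKAR2B, a regulatory subunit of the same kinase, fell by 0.29 after CD40L (SE 0.069, adjusted p = 0.0173, 3 of 3 batches, 11 of 20 alternatives).

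PDE7A, a phosphodiesterase that breaks down cAMP, rose by 0.43 after CD40L (SE 0.057, adjusted p = 0.000187 from limma, 3 of 3 batches, 20 of 20 alternatives), with 3 of its 6 probe sets called. It lay higher after CD40L than after LPS by 0.39 (SE 0.057, adjusted p = 0.00322, 16 of 20 alternatives). Of the 25 cAMP genes measured, CD40L raised 1 (3.71% of all probe sets) and lowered 2 (1.87%). LPS raised 0 (1.17% of all probe sets) and lowered 1 (0.892%), with 4 at an unadjusted p under 0.05.

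On the phospholipase C branch, 2 of 14 genes were higher after CD40L (3.71% of all probe sets) and 1 after LPS (1.17%), with 0 lower. PLCB1, a phospholipase C that Gq α subunits switch on, rose by 0.39 after CD40L (SE 0.063, adjusted p = 0.00124 from limma) and by 0.32 after LPS (SE 0.063, adjusted p = 0.0131), in 3 of 3 batches each. The calls of PLCB1 held in 20 of 20 alternatives after CD40L and in 14 of 20 after LPS, each at 1 of its 3 probe sets. PRKCE, a protein kinase C, rose by 0.33 after CD40L (SE 0.062, adjusted p = 0.00365 from limma, 3 of 3 batches, 19 of 20 alternatives). The call of PRKCE rested on 1 of its 4 probe sets.

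**Figure D4:**
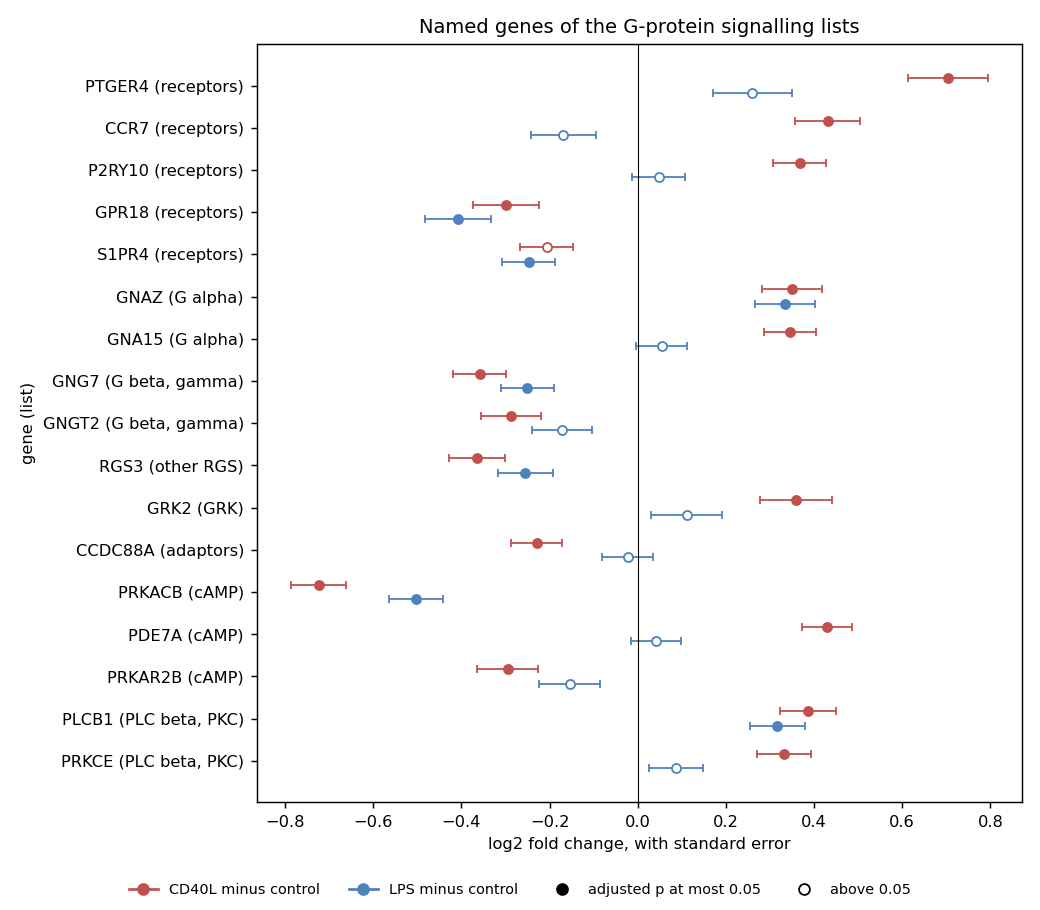
Log2 fold change with its standard error (horizontal axis) of the named genes of the G-protein signalling lists (vertical axis, list in brackets) after CD40L and after LPS, each minus control, with filled points at an adjusted p of at most 0.05. PRKACB is farthest to the left, at −0.72 after CD40L and −0.50 after LPS, and PTGER4 farthest to the right, at 0.70 after CD40L.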

How the data were processed

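RNA of BL2 cells was hybridised to HG-U133 Plus 2.0 arrays, 3 each for CD40L, LPS and no treatment, from 3 experiments. The authors corrected the background, normalised probe intensities with a variance stabilising method and summarised probe sets by median polish, and the deposited log2 values (generalised log2) were used as given. Array medians lay between 6.42 and 6.47. Precision is limited by the number of arrays. Of 54675 probe sets, 62 AFFX controls were left out. Probe sets naming 1 gene (41097) were named from the platform annotation.

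Changes were fitted with limma 3.58.1 in R 4.3.3, with condition and batch as fixed terms (4 residual and 11.6 prior degrees of freedom), two-sided, adjusted after Benjamini and Hochberg. The batch is a term because the study's methods use a paired design and the sample names number the experiments. Deviations from the group means correlated at 0.217 on average between arrays of the same number (−0.181 to 0.466). Between arrays of other numbers and other groups the average was −0.109. In batch 2 the control array correlated at −0.181 with the CD40L array and at −0.040 with the LPS array. With batch as a random effect, its consensus correlation was 0.0724. For 3 unpaired arrays against 3 the smallest exact permutation p is 0.1. The scripts were tested on simulated data.

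The members, the gene lists and the settings were chosen with earlier results of these data known. Each listed gene was measured by its brightest probe set, while the shares beside list counts are over all probe sets. Most calls come from brighter probe sets. With a minimum mean level of 6.5, there were 1988 higher and 969 lower calls after CD40L, against 2027 and 1022 over all probe sets. The text names all member probe sets, other RGS genes past the threshold or brightest, up to 4 genes of a list per comparison past the threshold with the largest change, and for each member past the threshold by its brightest probe set the 3 genes of highest correlation. The genes of the control array of batch 2 were chosen after their values were seen. The alternatives, 20 settings in all, were no batch term, batch as a random effect (duplicateCorrelation, statmod 1.5.0), 2 groups alone, quantile normalization, median centring, a minimum mean level of 6.5, AFFX kept, an intensity trend with a robust prior, and each batch and each array left out in turn. For lists the probe set of largest change was also used.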

Additional observations from a re-analysis of the deposited data

How the results depend on the processing

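The changes of RGS18 after both stimuli and of RGS10 after CD40L passed the threshold in all 20 alternative settings, and no change past the threshold, of a member or of a named list gene, reversed its direction. For the members, the settings use the arrays that guided the choice, so they describe the dependence on processing only. Member changes that were not past it could turn, as that of RGS1 216834_at after CD40L did (−0.66 to 0.21). Over the 12 settings that left out a batch or an array, 2 to 3 member probe sets were called after CD40L (2 with all arrays), 1 to 4 after LPS (3) and 0 to 1 for CD40L minus LPS (0). Without the replicate block, 1 was called after LPS, and with the block as a random effect also 1. With only the 2 groups compared, 1 was called for CD40L minus LPS, that of RGS1 216834_at.

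List counts moved as follows. Without the replicate block, the CD40L counts were 0 for other RGS genes (1 as reported), 0 for RGS domain relatives (1), 1 for β and γ subunits (2), 2 for receptors (5) and 0 for adaptors (1), the LPS counts 0 for other RGS genes (1), 0 for α subunits (1), 0 for β and γ subunits (1) and 1 for receptors (2), and the CD40L minus LPS counts 0 for α subunits (1) and 0 for receptors (3). The block as a random effect gave the same values for these, except 1 for other RGS genes, 2 for β and γ subunits and 3 for receptors after CD40L. With only the 2 groups compared, there were 1 β or γ subunit, 3 receptors and 0 adaptors after CD40L, 0 other RGS genes, 0 α subunits, 0 β or γ subunits and 1 receptor after LPS, and 1 RGS domain relative (0) and 1 phospholipase C gene (0) for CD40L minus LPS. Quantile normalization gave 2 RGS domain relatives after CD40L and 2 β or γ subunits after LPS. Median centring and the trend with a robust prior gave 0 β or γ subunits after LPS, and that trend setting gave 0 adaptors after CD40L. Without dim probe sets there were 2 adaptors after CD40L, 0 other RGS genes and 1 receptor after LPS, and 0 α subunits for CD40L minus LPS. By the probe set of largest change there were 6 cAMP genes (3) and 4 phospholipase C genes (2) after CD40L, and 2 cAMP genes (1) after LPS. Over all probe sets, dropping the replicate block left 884 higher and 562 lower after CD40L (2027 and 1022 with it), 156 and 166 after LPS (637 and 487) and 64 and 9 for CD40L minus LPS (164 and 52), while only the 2 groups gave 387 and 161 for CD40L minus LPS. The causes were not tested.

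With a batch or an array left out, counts after CD40L, after LPS and for CD40L minus LPS ran from 1 to 1, 0 to 1 and 0 to 0 for other RGS genes, 0 to 1, 0 to 0 and 0 to 1 for RGS domain relatives, 1 to 3, 0 to 1 and 0 to 1 for α subunits, 0 to 3, 0 to 1 and 0 to 0 for β and γ subunits, 2 to 5, 0 to 3 and 0 to 3 for receptors, 0 to 1, 0 to 0 and 0 to 0 for adaptors, 2 to 3, 1 to 2 and 0 to 1 for cAMP genes, and 2 to 4, 0 to 1 and 0 to 1 for phospholipase C genes. Changes of dim probe sets are compressed on this scale, so that small changes near the floor of the arrays can be missed.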

Other observations

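Single arrays that stand above all others bear on 2 members. Besides RGS1 in the control array of batch 2, the array with RGS2 highest, the control array of batch 1, had ARRDC3, an arrestin family gene, as its largest gap, 0.83 above the next array. Probe sets at least 0.5 above every other array numbered 9 in the CD40L array of batch 2, 6 in the control array of batch 2, 2 in the LPS array of batch 2 and 1 in the control array of batch 1. In each of the other 5 arrays there were 0.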
